A study of Xenopus laevis with 4 samples.

Results

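The homeobox transcription factors are described here, with the Hox genes first, in regenerating hindlimb blastemas and regeneration-blocked pseudoblastemas of the African clawed frog Xenopus laevis. Members were the probesets (groups of short probes that together measure a transcript) whose single gene symbol on the array's annotation begins as a homeobox family does: the hoxa to hoxd clusters, dlx, msx, meis, pbx, lhx, lmx, pitx, prrx, irx, pax, six3 and its relatives, emx, otx, nkx, alx, barx, shox, en1 and en2, gbx, cdx, evx and isl. By that rule 119 of 15491 tested probesets were members. They stood for 83 gene copies and, with the L and S copies that this allotetraploid frog carries counted as 1 gene, for 69 genes.

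The question of the comparison was which genes differ between a limb bud that regenerates and a limb bud of the same stage in which BMP signalling was blocked. Tadpoles of NF stage 52 had both hindlimb buds amputated at the future ankle, which removes the part that would form the foot, and the tissue was collected 3 days later. The WT group was 2 RNA samples, each from a pool of 20 blastemas of wild type tadpoles, and the N1 group was 2 RNA samples, each from a pool of 20 pseudoblastemas of the transgenic strain N1. N1 is a line from 1 founder with a single insertion, in which the coding sequence of Noggin, a secreted inhibitor of BMP ligands, is driven by a heat shock promoter (Hsp70), so that every heated tissue and not the blastema alone can make it, and which carries GFP under a lens promoter. WT tadpoles were siblings of the N1 tadpoles, and both groups were warmed to 34°C for 30 minutes on the same schedule, 3 hours before amputation and then 24 and 48 hours after it. Both groups are therefore heated, amputated tissue, and there was no unheated or intact sample. Each sample was hybridised to 1 Affymetrix array, which gives 4 arrays in all. The noggin probeset nog.L read 91.8 and 95.5 for WT, 75.6 and 52.2 for N1, with WT the higher. Whether its probes match the part of noggin that the transgene carries was not tested, and the reading cannot check the label. The array's EGFP control probeset read 16.1 and 29.4 for WT, 123 and 108 for N1.

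Homeobox genes encode transcription factors that bind DNA through a homeodomain. The Hox genes lie in clusters, and the order of the paralogue groups 1 to 13 along a cluster follows the order in which they are used along the body axis. In the mouse and chick limb the groups 9 to 13 of the hoxa and hoxd clusters are used again along the proximal to distal axis: Hox11 genes pattern the lower leg and forearm and Hox13 genes the foot and hand. The TALE factors (meis, pbx and irx) include the Meis and Pbx partners of Hox proteins, and other homeobox families mark single compartments, such as Pitx1 for hindlimb identity, Lmx1b for the dorsal side, En1 for the ventral ectoderm, Lhx2 and Lhx9 for the distal mesenchyme, and Msx and Dlx genes for tissue that responds to BMP or forms the apical ectoderm and skeleton. The symbol rule also takes in pax2, pax5 and pax8, whose proteins keep part of a homeodomain. Many other members, such as Otx, Pax6, Six3 and Nkx2-1, are known for the eye, the forebrain or internal organs.

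Signals are MAS5 intensities in arbitrary units, and the level of a probeset is the geometric mean of its 4 signals. The authors' scaling gave each array the same trimmed mean, and the median signal of the 4 arrays ranged from 157 to 175. Differences were taken as WT minus N1 on the log2 scale and tested with limma, and p-values were adjusted by Benjamini-Hochberg over the 15491 probesets. The labels number the 2 samples of a group, and no source says that the pools came from separate clutches, so the p-values measure the spread between these pools. The paper states that its comparisons were made between siblings of the same mating. It does not say in so many words that both replicates of a group share that mating. With 2 arrays against 2, an exact two-sided permutation test of a single probeset cannot give a p below 0.333. The hindlimb label was read from pitx1.L, at 286 and 364 for WT, against 469 and 296 for N1, and from tbx4.L, at 62.9 and 55.5 for WT, against 62.2 and 81.8 for N1, which was below the median level of all probesets. The forelimb gene tbx5.S was at 11.4 and 36.7 for WT, against 79.6 and 25.4 for N1.

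Most homeobox probesets were dim. The median level of all probesets was 165, and 95 of the 119 homeobox probesets (79.8%) lay below it, with 65 (54.6%) among the dimmest 25% of the array, below a level of 39.3. The other 24 lay at or above the median: pax3.L with 2 probesets, pbx2.L, hoxa3.S, hoxa7.L, hoxa11.S, hoxd9, msx1.L, dlx3.S, dlx2.S, pitx1.L, hoxc10.L, msx2.L, lhx9.L, lmx1b.1.S, dlx6.S, hoxc8.S, hoxd3.L, lhx2.L, dlx3.L, meis2.L, emx2.L, hoxd10.L and hoxd13.S. By family, 5 of the 12 probesets of Hox groups 9 to 13 were at or above the median, 2 of 5 in groups 1 to 4, 2 of 11 in groups 5 to 8, 7 of 32 NK-like and other probesets, 3 of 14 LIM probesets, 2 of 11 TALE probesets, 3 of 29 paired and paired-like probesets and 0 of 5 probesets of six3 and six6. Among the Hox clusters the counts were 3 of 9 for hoxa, 0 of 6 for hoxb, 2 of 6 for hoxc and 4 of 7 for hoxd. The 6 hoxb probesets (hoxb4.S, hoxb5.S, hoxb7.L with 2, hoxb7.S and hoxb9) had levels from 7.57 to 65.7. Since the brightness of a probeset depends on its probes, these levels say which probesets carried signal and do not rank genes against each other. The last member inside the median level was hoxd13.S, at 170.3, and the first outside it was the second probeset of hoxa11.S, at 159.8.

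**Figure D1:**
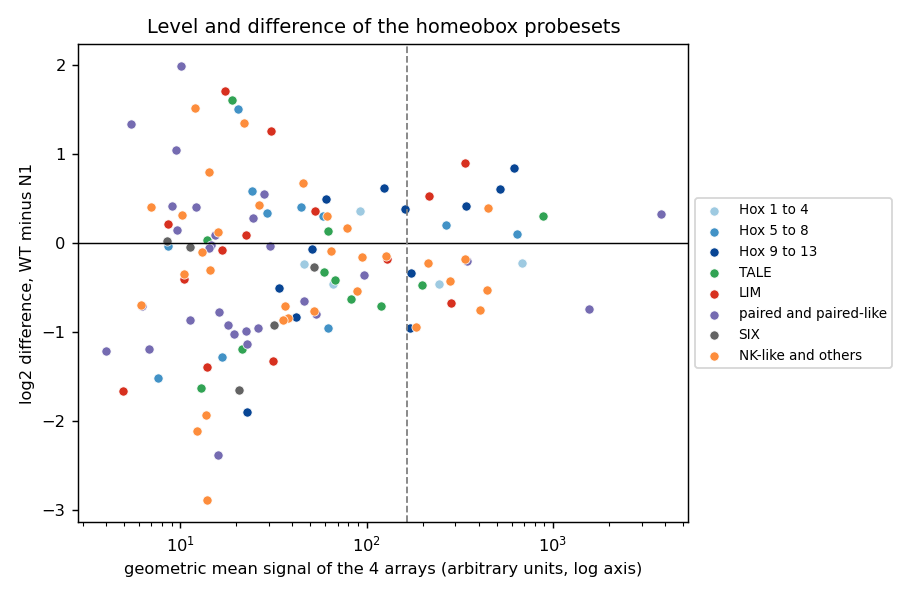
Level and difference of the 119 homeobox probesets. Each point is 1 probeset, placed by the geometric mean of its 4 signals (arbitrary units, log axis) and by its log2 difference, WT minus N1, and coloured by family. The dashed line is the median level of all probesets, 165, and the differences spread more widely to its left, where 95 of the 119 points lie.

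No homeobox probeset passed the adjusted threshold of 0.05. Over all probesets, 2 (0.0129%) passed it higher in WT and 17 (0.11%) higher in N1, with 0.0129% and 0.181% at or above the median level and 0.0129% and 0.0387% below it. The smallest adjusted p of a member from limma was 0.252, for lhx9.L. At an unadjusted p under 0.05, 2 homeobox probesets were higher in WT (1.68% of 119, against 4.29% of all probesets) and 6 were higher in N1 (5.04%, against 6.82%). Among the 24 members at or above the median level the counts were 2 in WT (8.33%, against 7.02% of all probesets at or above the median) and 3 in N1 (12.5%, against 8.31%). The 5 are lhx9.L and hoxa11.S in WT, and dlx2.S, the second probeset of pax3.L and hoxd13.S in N1. Both WT arrays lay above both N1 arrays for 18 members (15.1%, against 17.9% of all probesets), and both N1 arrays above both WT arrays for 28 (23.5%, against 24.2%). A mean over 1.5-fold higher was seen for 18 members in WT (15.1%, against 9.1% of all probesets) and for 39 in N1 (32.8%, against 19%), most of them dim: at or above the median level the counts were 3 (12.5%, against 5.91%) and 5 (20.8%, against 8.29%), and below it 15 (15.8%, against 12.3%) and 34 (35.8%, against 29.7%). The counts past the tests are small, and whether their shares differ from those of the whole array was not tested. The member counts moved when an array was left out, and so did the shares of the whole array.

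Replicate spread was set beside the differences between groups, for the members and for the array. A replicate gap is taken between 2 single arrays, and a group difference between 2 means of 2 arrays. Means vary less than single arrays, so the 2 measures are unlike, and each is best read beside its value over all probesets. For the 24 members at or above the median level, the 2 WT arrays differed by a median of 0.33 on the log2 scale and the 2 N1 arrays by 0.38, against a median difference between groups, without its sign, of 0.45. Over all probesets at or above the median these values were 0.19, 0.30 and 0.25. For the 95 members below it, the gaps were 0.79 and 0.88, against 0.58 between groups, and over all probesets there 0.54 and 0.65, against 0.49. The difference between groups was larger than both replicate gaps for 7 of the 24 (29.2%, against 33.5% of all probesets at or above the median) and for 19 of the 95 (20%, against 24.1%). The 95% interval of the difference lay within 1 log2 unit of 0, that is within a 2-fold change either way, for 9 of the 24 (37.5%, against 68.6% of all probesets at or above the median) and for 1 of the 95 (1.05%, against 5.49%). For the other 94 of the dim members it reached past 2-fold.

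The median difference of the 119 probesets was -0.18 on the log2 scale, against -0.073 for all probesets, and 47 had the higher mean in WT and 72 in N1. At or above the median level it was -0.22 (10 higher in WT, 14 in N1), against 0.0040 for all probesets there. It ranged from -0.34 without WT replicate 1 to -0.037 without WT replicate 2, and was -0.090 without either N1 replicate. Below the median level it was -0.16, against -0.20. The 28 Hox probesets divided evenly, with 14 higher in each group. After each array was centred on its median, which moved the median of all probesets by 0.11, the member median was -0.072 against 0.036, and 56 and 63 members were higher in WT and N1. After quantile normalisation it was -0.026 against 0.021, with 58 and 61. The 24 brighter members kept the split of 10 and 14 under both. The pools hold mixed tissue, in which fewer cells of a type and less RNA per cell cannot be told apart.

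Among the Hox genes of groups 9 to 13, the bright probesets did not go one way. The probeset of hoxa11.S with the highest level, Xl.266.2.S1_a_at, had signals of 709 and 964 for WT, against 309.8 and 684 for N1. Both WT arrays were above both N1 arrays, but WT replicate 1 and N1 replicate 2 were only just apart, and the N1 arrays differed from each other by more than the groups did. The mean was 1.68-fold higher in WT, a log2 difference of 0.84 ± 0.36 (SE, n = 2 arrays a group) with an adjusted p of 0.438 from limma, which ranged from 0.0383 to 0.999 over the alternatives. The unadjusted p, 0.0458, stayed under 0.05 in 5 of 12 alternatives, and the log2 difference was 0.27 without N1 replicate 1 and 0.62 without WT replicate 2. Without N1 replicate 2 its difference was 1.42 and its adjusted p from limma was 0.0383, the 1 call of a member at the adjusted threshold under any alternative, and it rests on a single N1 array. Hoxa11 is a lower leg and forearm gene in the mouse, and its 3 other probesets were below the median level.

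Hoxd13, needed for digits in the mouse, lay the other way. hoxd13.S had signals of 106 and 141 for WT, against 269.6 and 209 for N1, so that each N1 array was above each WT array. Its mean was 1.94-fold higher in N1, with a log2 difference of -0.96 ± 0.33 (SE) and an adjusted p of 0.341 from limma (0.183 to 0.858 over the alternatives). The unadjusted p was under 0.05 in 10 of 12 alternatives, and it was 0.116 without WT replicate 1 and 0.0844 without N1 replicate 1. The other Hox13 probeset, of hoxa13.S, was in the dimmest 25% with signals of 31.3 and 25.8 for WT, against 23.8 and 68.9 for N1.

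The other distal Hox genes at or above the median level had overlapping groups. hoxd9 (Xl.13343.1.A1_at) was at 442 and 935 for WT, against 390.0 and 454 for N1, where WT replicate 2 stood above the other 3 arrays and the rest lay close together. hoxd10.L was at 199 and 121 for WT, against 227 and 168 for N1, and hoxc10.L, a gene whose mouse counterpart is used in the hindlimb and not the forelimb, was at 329.9 and 469 for WT, against 251 and 348 for N1. Both groups overlapped in each of the 3. Their log2 differences were 0.61, -0.34 and 0.41, with SEs of 0.34, 0.36 and 0.29. hoxc12.L was below the median level at 25.3 and 39.2 for WT, against 65.6 and 47.9 for N1. Its N1 arrays were the higher, and its interval was -2.10 to 0.43. hoxb9 was at 77.6 and 67.1 for WT, against 62.0 and 42.6 for N1, apart with WT the higher and a log2 difference of 0.49 ± 0.47 (SE). Of the 5 genes of these groups with a probeset at or above the median level, hoxa11.S had an unadjusted p under 0.05 on the WT side and hoxd13.S on the N1 side, and hoxd9, hoxd10.L and hoxc10.L were on neither side.

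Of the Hox genes of groups 1 to 8, 4 had a probeset at or above the median level. hoxa7.L, a trunk gene, was at 705 and 631 for WT, against 549 and 706 for N1, a log2 difference of 0.10 with a 95% interval of -0.41 to 0.61. hoxa3.S, known for pharyngeal and neck patterning in the mouse, was at 713 and 556 for WT, against 645 and 847 for N1, with a difference of -0.23 (-0.78 to 0.31). hoxc8.S was at 257 and 320.4 for WT, against 227 and 276 for N1, and its groups overlapped, with a difference of 0.20 (-0.44 to 0.83). None of these intervals reached a 2-fold change. hoxd3.L had groups that were apart, at 222 and 196 for WT, against 256 and 321 for N1, with a difference of -0.46 ± 0.28 (SE). hoxd8.L was below the median level, and its brighter probeset read 59.1 and 33.97 for WT, against 109.9 and 69.0 for N1, while the dimmer read 50.1 and 51.8 for WT, 47.5 and 31.4 for N1, with the opposite sign. hoxa2.L and hoxa2.S, hindbrain and branchial arch genes, were at levels of 92.7 and 45.9, and hoxb4.S, hoxc5.L, hoxc6.S, hoxb5.S and the hoxb7 copies at 65.7 or less. Of these, hoxc5.L read 36.5 and 32.5 for WT, 14.6 and 10.2 for N1, apart with WT 2.79-fold higher in the mean. It was dim, at a level of 20.5. Its log2 difference had a 95% interval of -0.075 to 3.08, which included 0, and an adjusted p of 0.477 from limma. The brighter probeset of hoxc6.S was also apart, at 67.5 and 61.6 for WT, 47.9 and 57.3 for N1. The dimmer probeset of hoxb7.L was apart with N1 above, at 7.23 and 2.78 for WT, 9.13 and 18.0 for N1. Their 95% intervals, -0.76 to 1.36 for hoxc6.S and -3.91 to 0.88 for hoxb7.L, included 0. These probesets and that of hoxc5.L were picked out after their values were seen. The log2 difference was -1.28 for hoxb7.S and 0.58 for the brighter hoxb7.L probeset, each with overlapping groups.

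**Figure D2:**
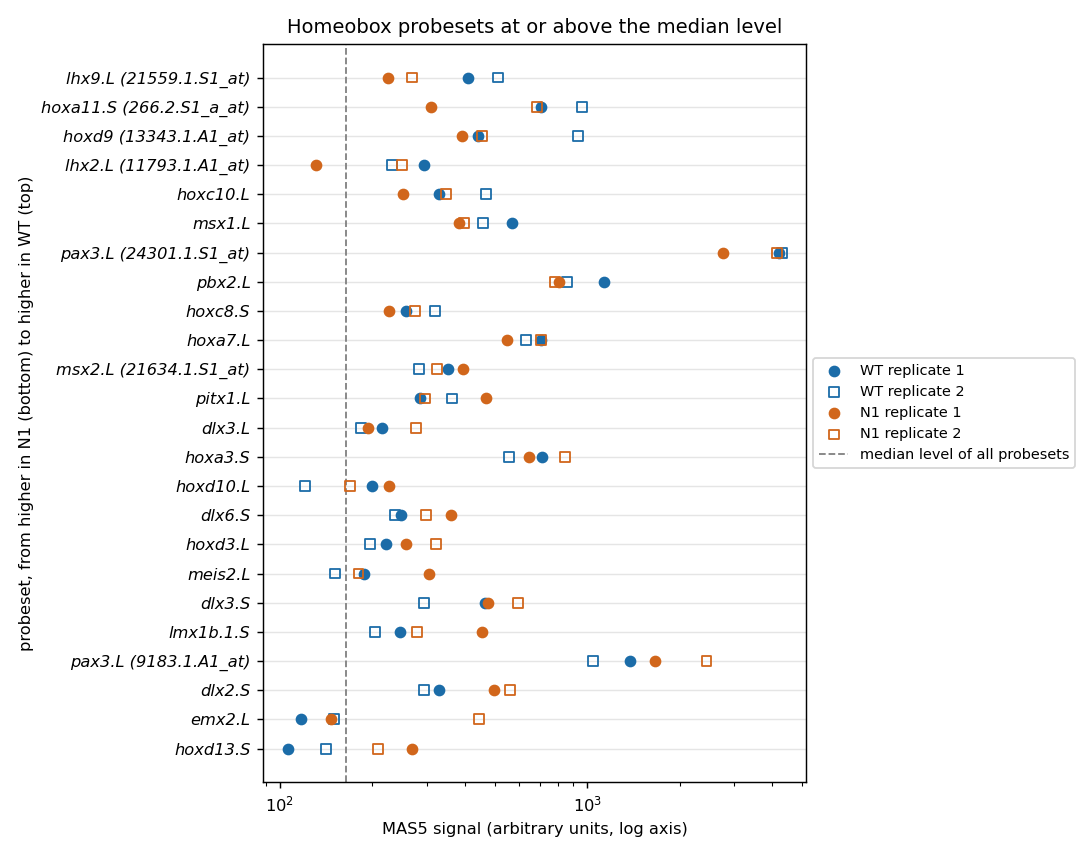
Signals of the 24 homeobox probesets at or above the median level, on each of the 4 arrays (arbitrary units, log axis), ordered by the log2 difference from higher in N1 at the bottom to higher in WT at the top. Filled circles are replicate 1 and open squares replicate 2, blue for WT and orange for N1, and the dashed line is the median level of 165. In the top rows lhx9.L has both blue points above both orange points, in the bottom row hoxd13.S has the reverse, and emx2.L is set apart by N1 replicate 2 at 443.

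Of the TALE factors, pbx2.L, a partner of Hox and Meis proteins, had signals of 1130.1 and 856 for WT, against 806 and 784 for N1. The WT arrays were above the N1 arrays, by a log2 difference of 0.31 with a 95% interval of -0.18 to 0.80. Meis genes mark the proximal limb in mouse and chick, and meis2.L was at 187 and 151 for WT, against 305 and 180.2 for N1, with N1 replicate 1 the highest and N1 replicate 2 between the WT arrays. meis1.S lay below the median level at 115 and 37.8 for WT, against 89.6 and 117 for N1, where WT replicate 2 was low and the other 3 arrays were between 89.6 and 117. The difference of meis1.S was -0.64, and it turned to 0.17 without that array. The mouse counterparts of irx3 and irx5 are needed early in the hindlimb bud. irx3.L was at 56.5 and 61.1 for WT, against 104 and 59.1 for N1. irx5.L was at 53.0 and 52.1 for WT, against 80.3 and 54.4 for N1. In both genes N1 replicate 1 was the highest array, in irx5.L N1 replicate 2 was also above WT, and the log2 differences were -0.42 and -0.33. irx2.L was at 97.4 and 43.4 for WT, against 80.3 and 43.6 for N1. irx4.L was at 134 and 65.1 for WT, against 155 and 149 for N1, with both N1 arrays above the WT arrays. irx1.L, meis3.S and meis3.L were in the dimmest 25%.

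LIM homeobox genes held the member with the smallest p. Lhx2 and Lhx9 act in the distal mesenchyme of the mouse limb, beneath the apical ectodermal ridge, and share part of their work with Lmx1b. lhx9.L (Xl.21559.1.S1_at) had signals of 409 and 511 for WT, against 225 and 269 for N1. All WT signals were above all N1 signals, and the gap between the groups was wider than the spread within either. The mean was 1.86-fold higher in WT, a log2 difference of 0.89 ± 0.26 (SE, 95% interval 0.30 to 1.49), with an adjusted p of 0.252 from limma. Over the alternatives the difference ranged from 0.73 to 1.05 and the adjusted p from 0.123 to 0.996, and the unadjusted p was under 0.05 in 11 of 12, with 0.0848 without WT replicate 2 as the exception. lhx2.L (Xl.11793.1.A1_at) was at 295 and 231 for WT, against 131 and 250.3 for N1. N1 replicate 2 lay between the WT arrays, and its log2 difference of 0.52 had an SE of 0.37 and was 0.06 without N1 replicate 1.

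lmx1b.1.S, a dorsal mesenchyme gene in the mouse and chick, lay on the other side of the comparison, at 245 and 204 for WT, against 455 and 279 for N1. Both N1 arrays were above both WT arrays, although N1 replicate 1 stood well above N1 replicate 2. The log2 difference was -0.67 ± 0.31 (SE; limma, adjusted p = 0.481). The 95% interval, -1.38 to 0.040, just included 0. The other LIM members, lhx1.L, lhx3.L, lhx5.S, lhx8.L and the copy named lhx2-b, were below the median level. All of these but lhx2-b are known from the brain, pituitary and kidney, and the highest level among these members was 128 for lhx5.S.

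The paired and paired-like genes with signal were pitx1.L and pax3.L. Pitx1 sets hindlimb identity, and pitx1.L was at 286 and 364 for WT, against 469 and 296 for N1. The groups overlapped, with N1 replicate 1 highest, and the difference of -0.21 ± 0.30 (SE) became 0.13 without that array. Pax3 marks the muscle precursors that migrate into the limb. Its 2 bright probesets disagreed: the brightest, Xl.24301.1.S1_at, read 4190.2 and 4283 for WT, against 2755 and 4142 for N1, and the next, Xl.9183.1.A1_at, read 1379 and 1046 for WT, against 1659.7 and 2442 for N1. In the first the WT arrays were higher, with N1 replicate 2 almost level with them. In the second the N1 arrays were higher by 1.69-fold in the mean, a log2 difference of -0.75 ± 0.24 (SE; limma, adjusted p = 0.308), and the unadjusted p was 0.0600 without N1 replicate 2, 0.130 without WT replicate 2 and 0.0870 with no variance trend. The remaining pax3.L probesets had levels of 46.1 and 26.1, and pax3.S was at 80.3 and 91.3 for WT, against 103 and 118 for N1. The annotation of this array is the source of all 4 names, and which of the bright probesets reads pax3 was not tested. Of 11 other muscle genes measured, 4 had no overlap with N1 the higher and 0 with WT the higher. The shares over all probesets were 24.2% and 17.9%. The summed signal of the 11 was 1849 and 1821 in WT and 3035 and 2121 in N1. Much of it came from ckm.L, at 1342 and 1308 for WT, against 1384 and 1671 for N1. Only ckm.L among them was at or above the median level. The part of muscle content in the pax3.L values was not tested.

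Among the Msx genes, which respond to BMP in many tissues and are used in the distal limb mesenchyme, msx1.L was at 570.3 and 459 for WT, against 382 and 397 for N1. The WT arrays were above the N1 arrays by 1.32-fold in the mean, a log2 difference of 0.39 ± 0.23 (SE), with an adjusted p of 0.582 from limma. msx2.L (Xl.21634.1.S1_at) was at 352 and 283 for WT, against 394 and 324 for N1, where the groups overlapped and the difference was -0.18, with a 95% interval of -0.78 to 0.41. The interval for msx1.L was -0.14 to 0.93. A difference between the 2 genes was not tested. The S copy of msx1 was dim, at 44.9 and 3.51 for WT, against 27.1 and 6.73 for N1.

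Dlx genes are paired along the genome and are known from the branchial arches, the apical ectodermal ridge, the epidermis and the skeleton. dlx2.S had signals of 329 and 295 for WT, against 498 and 559 for N1, with all N1 signals above all WT signals. The mean was 1.69-fold higher in N1, a log2 difference of -0.76 ± 0.23 (SE, 95% interval -1.29 to -0.23), with an adjusted p of 0.282 from limma (0.201 to 0.993 over the alternatives, with an unadjusted p under 0.05 in 11 of 12, and of 0.0729 without WT replicate 2). dlx3.S, an epidermal gene in frog embryos, was at 464 and 293 for WT, against 474 and 597 for N1, and WT replicate 1 was almost level with N1 replicate 1. dlx3.L was at 215 and 184 for WT, against 194 and 277 for N1, with N1 replicate 1 between the WT arrays. dlx6.S was at 248 and 237 for WT, against 360.0 and 298 for N1, N1 above WT on every array. The log2 differences of dlx3.S, dlx3.L and dlx6.S were -0.53, -0.22 and -0.43, with SEs of 0.28, 0.31 and 0.26. Below the median level were dlx2.L, at 146 and 100.3 for WT, against 133 and 135 for N1, and dlx5.L, at 88.0 and 77.6 for WT, against 94.2 and 57.7 for N1, and in both the groups overlapped. Of the 6 measured copies of dlx2, dlx3, dlx5 and dlx6, 5 had the higher mean log2 signal in N1, as did 60.5% of the homeobox probesets and 55.9% of all probesets, and that of dlx2.S alone had an unadjusted p under 0.05. Of 7 epidermal marker genes measured, 4 had no overlap with N1 the higher and 0 with WT the higher, against 24.2% and 17.9% of all probesets. Their summed signal was 5492 and 5889 in WT and 5166 and 7266 in N1. The largest part came from krt70.S, at 2943 and 3548 for WT, against 1568 and 2993 for N1. At an unadjusted p under 0.05, 3 of the 7 were higher in N1 and 0 in WT, against 6.82% and 4.29% of all probesets. One of the 3, krt18.1.L, was at 48.4 and 49.1 for WT, against 414 and 457 for N1 (limma, adjusted p = 0.0258). Its level was below the median. The S copy was dim and its groups overlapped, at 35.9 and 11.2 for WT, against 6.12 and 37.5 for N1. The part of these epidermal genes in the dlx values was not tested.

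emx2.L had a wide difference that came from 1 array. Its signals were 117 and 149.8 for WT, against 147 and 443 for N1, so that N1 replicate 2 stood far above 3 arrays that lay close together. The log2 difference was -0.94 ± 0.49 (SE), and it was -0.15 without N1 replicate 2 and -1.74 without N1 replicate 1. Emx2 is known from the forebrain and the urogenital tract, and from the shoulder blade in the mouse. The ventral ectoderm gene en1 was read by 2 probesets named en1-b, both below the median level. The brighter read 99.7 and 54.1 for WT, 126 and 91.2 for N1. The dimmer read 31.2 and 52.1 for WT, 82.8 and 56.5 for N1. The groups overlapped in the brighter and not in the dimmer, with log2 differences of -0.54 and -0.76.

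**Figure D3:**
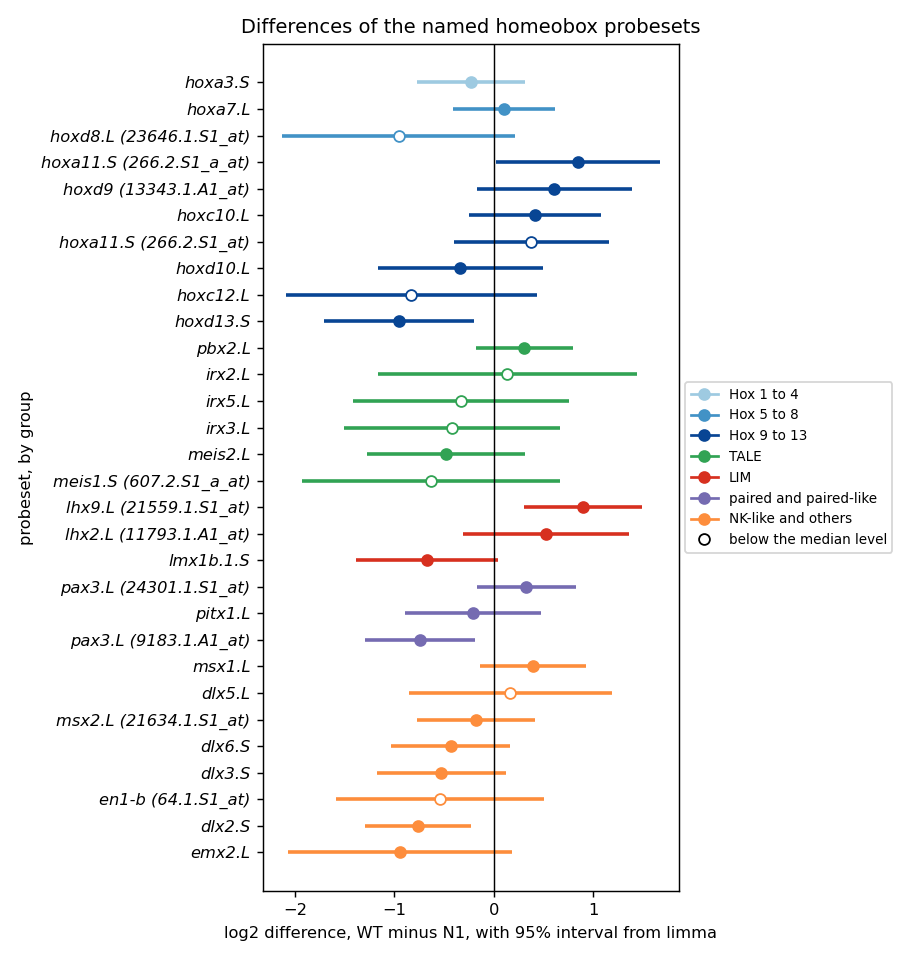
Log2 differences, WT minus N1, of the 30 named homeobox probesets, grouped by family. They are the brightest, those of a limb list, those apart at an unadjusted p under 0.05 and those next to the median level. Points are the limma estimates from 2 arrays a group, bars their 95% intervals, and open points probesets below the median level. The bars of lhx9.L and the brightest hoxa11.S probeset lie to the right of 0. Those of dlx2.S, hoxd13.S and the second pax3.L probeset lie to the left. The others, with the second hoxa11.S probeset among them, cross 0.

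The limb list behind that choice held 52 homeobox genes, of which 29 had a probeset under the symbol rule. Of these, 25 were above the dimmest 25% and 4 were within it (hoxa13, alx1, meis3 and irx1). The 23 others, among them hoxa9, hoxa10, hoxd11, hoxd12, prrx1, prrx2, shox2, isl1 and alx4, were not measured under that rule. RefSeq (assembly Xenopus_laevis_v10.1) lists 205 named L and S copies that fit the rule, and 79 of them had a probeset. For the Hox clusters the count was 19 of 56, with 6 of 16 in hoxa, 4 of 12 in hoxb, 5 of 14 in hoxc and 4 of 14 in hoxd. The hoxd9 and hoxb9 probesets, named by the array's annotation without an L or S suffix, come beside these 19, and Hox genes outside these were not measured under the rule.

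Probesets of the same gene copy often differed. Of 21 copies with several probesets, 14 had probesets of both signs and 7 had all probesets on 1 side. Only 1 of the 21, pax3.L, had more than 1 probeset at or above the median level. In the others the comparison of signs took in dim probesets, whose replicate gaps were wide. The 4 probesets of hoxa11.S had levels 12.1-fold apart. The second by level read 157 and 212 for WT, 122 and 161 for N1. The next read 128 and 183 for WT, 87.9 and 114 for N1. Both had higher means in WT (log2 differences 0.38 and 0.61), while the fourth, near 51.1 on every array, gave -0.067. In each of the first 3, N1 replicate 1 was the lowest array and WT replicate 2 the highest. The dimmer probeset of lhx9.L read 26.4 and 20.7 for WT, 28.8 and 16.8 for N1, in the dimmest 25%, and did not repeat the difference of the brighter one. For hoxd9, the dimmer probeset was 22.8-fold below the other and read 44.1 and 3.16 for WT, 44.9 and 43.5 for N1. The level spread was 6.89-fold in lhx2.L, 9.37-fold in msx2.L and 145-fold in pax3.L. For 14 genes 2 copies were measured, named L and S in all but lhx2, where they were lhx2.L and lhx2-b. Their brightest probesets had the same sign in 6 and opposite signs in 8. Both copies were at or above the median in dlx3 alone. Probes of near-identical copies can bind both transcripts, so the split between L and S is uncertain.

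**Figure D4:**
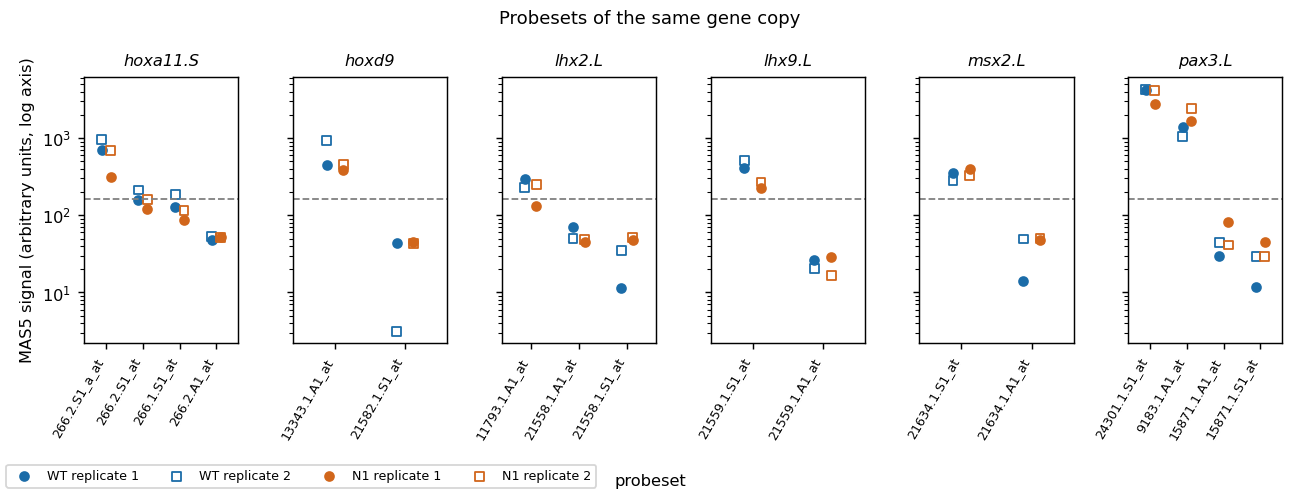
Signals of each probeset of 6 homeobox gene copies (arbitrary units, log axis), 1 panel a copy, with probesets ordered by level. Filled circles are replicate 1 and open squares replicate 2, blue for WT and orange for N1, and the dashed line is the median level of 165. By level, 1 probeset of each copy, and 2 of pax3.L, lie above the line, and the others of the same copy lie lower, by 145-fold at most. Single arrays can lie on the other side of the line, as WT replicate 2 does for the second hoxa11.S probeset, at 212.

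Below the median level, 0 of 95 members were higher in WT at an unadjusted p under 0.05 (against 1.55% of all probesets there) and 3 were higher in N1 (3.16%, against 5.33%). These 3 are otx1.L, nkx2-4.L and en2.S, genes known from the developing head that were picked out after their values were seen. otx1.L read 8.75 and 5.51 for WT, against 50.4 and 26.3 for N1. nkx2-4.L read 5.16 and 5.10 for WT, against 67.6 and 21.6 for N1, and en2.S read 5.16 and 6.75 for WT, against 29.2 and 22.6 for N1. All lie among the dimmest 25% of the array. With 64 added to each signal before log2 their differences shrank from -2.39, -2.90 and -2.12 to -0.52, -0.62 and -0.36, as adding to low signals must do. The unadjusted p from limma stayed under 0.05 in all 3 there. Of the 10 alternatives each could be tested in, it was under 0.05 in 8 for otx1.L, 9 for nkx2-4.L and 5 for en2.S. The eye and forebrain genes otherwise stayed dim: the 6 probesets of pax6.L had levels of 22.9 or less, those of six3 and six6 52.3 or less and the copies of otx2 12.2 or less. The 8 probesets of pax2.L, a kidney gene, were at 28.1 or less, with 4 of each sign. nkx2-5.S, the heart gene, had 2 probesets at 37.9 and 22.0, of opposite sign. The members not yet described, which are alx1.L, pax5.L, pax8.L, the copies of pitx3 and gbx2, evx1.L, cdx1.S, cdx4.L, en2.L, nkx1-2.L, nkx2-1.L, nkx2-2.S, the copies of nkx2-3, nkx2-6.L and nkx3-3.S, had levels of 94.0 or less.

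Limb patterning genes without a homeobox were read beside the members, from a list of 60, of which 44 were measured. Taking the brightest probeset of each, an unadjusted p under 0.05 was reached by 3 higher in WT and by 6 higher in N1 (6.82% and 13.6%, against 4.29% and 6.82% of all probesets), and 0 passed the adjusted threshold in either direction. By that probeset 25 of the 44 were at or above the median level, where the shares of all probesets were 7.02% and 8.31%. The 3 higher in WT were grem1.L, sox9.S and rxra.L. grem1.L, a BMP inhibitor and one of the genes the study itself singled out from these arrays, had signals of 1034 and 819 for WT, against 351 and 304 for N1, and its adjusted p from limma was 0.0616, the smallest on the list. sox9.S, a cartilage gene, was at 804 and 610.2 for WT, against 389 and 436 for N1. The 6 in N1 were bmp7.1.L, cyp26c1.S, shh.L, hhip.L, bmp2.S and aldh1a2.L. shh.L, the signal of the posterior limb margin that in the mouse acts with the distal hoxd genes, was at 230.2 and 286 for WT, against 449 and 373 for N1, and hhip.L, a binding protein and target of Hedgehog signals, was at 133 and 147 for WT, against 257 and 384 for N1. The enzyme of retinoic acid synthesis aldh1a2.L was at 33.2 and 37.4 for WT, against 122 and 92.5 for N1, below the median level, and the retinoic acid degrading enzyme cyp26c1.S at 236 and 293 for WT, against 429 and 459.8 for N1. In these 4 genes both N1 arrays were above both WT arrays, and in grem1.L and sox9.S the reverse held. These genes were named for an unadjusted p under 0.05, so their separation largely follows from how they were picked. Whether any of them changed together with a homeobox gene was not tested.

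Markers of other tissues in the pools were read in the same way, beside shares over all probesets of 17.9% with both WT arrays above and 24.2% with both N1 arrays above. Of 5 cartilage genes measured, 3 had no overlap with WT the higher and 0 with N1 the higher, with a summed signal of 2794 and 2018 in WT and 1449 and 1614 in N1. Of 6 red cell genes, 5 had both N1 arrays above and 1 both WT arrays above, and their sum was 32616 and 26451 in WT and 63701 and 75902 in N1. Of 3 pigment cell genes, 3 had both N1 arrays above, with sums of 406 and 570 in WT and 2977 and 920 in N1. Of 5 leucocyte genes, 2 had no overlap with N1 the higher and 1 with WT the higher, and they summed to 1521 and 1430.5 in WT and 1619 and 1419.8 in N1. Of 6 Schwann cell and nerve genes, 0 reached the median level and 0 were apart in either direction. Of 3 endothelial genes, 0 reached the median level, and 1, tek.S, was apart with an unadjusted p under 0.05, at 142 and 122 for WT, 84.4 and 53.5 for N1. The endothelial genes summed to 347 and 397 in WT and 491 and 282 in N1. No marker on these lists was at 0 on any array, but the brightest probesets of the Schwann cell and nerve genes read as low as 3.82. Detection calls were not used, so a signal above 0 does not show that a marker was present. The part of tissue make-up in the differences of the homeobox genes was not tested.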

How the data were processed

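RNA of 2 WT and 2 N1 pools was hybridised to Affymetrix Xenopus laevis arrays after 2-cycle labelling. The authors deposited MAS5 signal intensity values on a linear scale, made with GCOS (versions not given in the sources used here), and their scaling gave each array a mean of 500 after trimming 2% at each end. Of 15611 probesets, 120 controls were left out. The annotation gave 9304 probesets 1 symbol, 195 several and 5992 none, and 112 of 119 members matched the RefSeq table by gene ID. WT and N1 were compared on log2 intensity with limma 3.58.1 under R 4.3.3 (lmFit, then eBayes with its variance trend), with Benjamini-Hochberg adjustment over 15491 probesets and nothing added before log2. The test was tested on simulated data. The members and lists were chosen with earlier results of these data known. Named genes were those with an unadjusted p under 0.05, no overlap and a level at or above the median, the 6 brightest, limb-list members above the 25th percentile, their other probesets and copies, and the members next to the median. Replicate numbers were not used to pair the arrays, apart from the alternative with a block. Alternatives were the variance trend, level filters, quantile or median scaling, 16 or 64 added, a replicate block and each array left out. Detection calls were not used here, and precision is limited by the 4 arrays. No sequences are printed.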

Additional observations from a re-analysis of the deposited data

How the results depend on the processing

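Of 30 named homeobox probesets, 24 kept their direction under every alternative they could be tested in, and 6 turned, each with an array left out: dlx5.L from 0.17 to -0.19 without N1 replicate 2 (-0.19 to 0.52 over the arrays), hoxa7.L from 0.10 to -0.082 (-0.082 to 0.28) and pitx1.L from -0.21 to 0.13 (-0.54 to 0.13) without N1 replicate 1, hoxd10.L from -0.34 to 0.026 (-0.70 to 0.026) and meis1.S from -0.64 to 0.17 (-1.44 to 0.17) without WT replicate 2, and irx2.L from 0.14 to -0.45 without WT replicate 1 and -0.30 without N1 replicate 2 (-0.45 to 0.72). Members higher in WT at an unadjusted p under 0.05 numbered 2 of 119, against 4.29% of all probesets. They numbered 4 with no variance trend, quantile normalisation or median centring, against 2.68%, 4.99% and 6.64% of all probesets. With the filter at the median level they numbered 1 of 24, against 6.39% of the probesets tested there. The count moved when an array was left out. On the N1 side, 6.82% of all probesets had an unadjusted p under 0.05. With the filter at the median level, which kept 24 members, the share of the probesets tested was 8.35%. With the filter at the 25th percentile, which kept 54 members, it was 7.93%. The share of all probesets higher in N1 also moved when an array was left out. Members higher in N1 numbered 6, 3 with either level filter, which tests fewer probesets, and 3 to 9 with an array left out. Adjusted calls of members were 0, and 0 to 1 with an array left out (hoxa11.S without N1 replicate 2). Over all probesets the 664 higher in WT became 415 with no trend, 1028 with median centring and 217 to 1263 with an array left out. The 1057 higher in N1 became 647 with the filter at the median level and 593 to 1475 with an array left out. The median member difference of -0.18 was -0.026 after quantile normalisation and -0.36 to -0.022 with an array left out. With the replicate number as a block, 3 members were higher in WT at an unadjusted p under 0.05 and 8 in N1. The shares of all probesets there were 4.91% and 7.53%. Adjusted calls of members stayed at 0, with a smallest adjusted p of 0.133 from limma, while those over all probesets went from 19 to 200. The deviations of arrays with the same number correlated at 0.028. With 2 arrays a group this cannot tell whether such arrays share a clutch or a batch, which was not tested. The cause of these shifts was not tested. For the 95 members below the median level, the wider replicate gaps limit what 2 arrays a group can show, and detection calls were not used.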

Other observations

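Homeobox genes that the symbol rule leaves out were read from a list of 76, of which 37 were measured. By the brightest probeset of each, 6 were at or above the median level and 31 below it. At an unadjusted p under 0.05, 0 were higher in WT and 1 (2.70%) in N1, against 4.29% and 6.82% of all probesets. Below the median level these shares of all probesets were 1.55% and 5.33%. The 1 was not.S, a notochord and organiser gene in frog embryos. It was below the median level, at 75.4 and 49.4 for WT, against 160.2 and 151 for N1. Its adjusted p from limma was 0.271. Both N1 arrays lay above both WT arrays for 12 of the 37 (32.4%) and the reverse held for 5 (13.5%), against 24.2% and 17.9% of all probesets. Over all probesets below the median level these shares were 25.3% and 11.7%.

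One probeset carries the symbols of both hoxa2 copies and is therefore no member. Its signals were 149 and 75.9 for WT, against 240.4 and 182 for N1, a log2 difference of -0.97 (limma, adjusted p = 0.427). The probesets of the single copies gave differences of 0.36 for hoxa2.L and -0.23 for hoxa2.S, each with overlapping groups, so the 3 readings of hoxa2 did not go one way.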
